A study of Bos grunniens with 18 samples.

Results

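The innate immune response genes of the yak epididymis were followed through a map of N6-methyladenosine (m6A), the methyl group carried by many adenosines of messenger RNA. They were all genes of the authors' gene table whose ontology text holds the words "innate immune response". Symbols starting with DEFB (beta-defensins), ZNF, SLC or RPS were left out. This gave 297 of 18467 genes, of which 275 carried the exact term and 22 only a wider or regulatory term. The rule reads no measured value, but it was chosen with earlier results of these data known. The tissue came from 6 healthy, untreated male yaks (Bos grunniens), 4 years old. It was cut into the head (caput), body (corpus) and tail (cauda) of the epididymis, the duct in which sperm mature and are stored. Poly(A) RNA was fragmented and either pulled down with an m6A antibody (RIP) or kept as input. With 3 RIP and 3 input libraries a region, 18 libraries were sequenced. The labels tie no library to an animal and do not say whether animals were pooled, so the spread behind the authors' tests may be technical.

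The files used here are 1 list of candidate adenosines per region and 3 tables in which the authors compared the m6A peaks of a pair of regions. A peak is a stretch of transcript enriched by the antibody, and each table gives its log2 fold, p and adjusted p. The fold of corpus over caput is written corpus/caput, and likewise cauda/caput and cauda/corpus. No value per library is given, so no replicate error can be shown, and the depth behind each peak is unknown. A peak was called higher or lower only where the authors' adjusted p was under 0.05. No source used here states whether folds were taken relative to input, so differences in methylation and in transcript abundance cannot be told apart. In whole tissue, fewer cells of a type and less RNA per cell cannot be told apart either. Exons, introns and untranslated regions were not analysed here, since no annotation of the files' build was used.

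Innate immunity is the first defence against microbes and rests on receptors encoded in the germ line. Toll-like receptors read microbial molecules at the cell surface or in endosomes, and cytosolic sensors read foreign RNA and DNA. Adaptors and kinases pass both signals to transcription factors that switch on interferons, cytokines and antiviral proteins, while complement and secreted antimicrobial proteins act outside the cell. In the epididymis these systems guard a duct open to ascending infection, and they work beside maturing sperm that the immune system must tolerate. m6A is known to mark many immune transcripts and to affect how long messenger RNA lasts and how well it is translated.

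A peak was found in at least 1 comparison table for 154 of the 297 genes (51.9%, 95% Wilson interval 46.2 to 57.5). Over all 18467 genes of the authors' table the share was 51.1% (50.4 to 51.8), so the intervals overlapped. The intervals cover counting error only. Peaks were present for 10 of 13 genes of the Toll-like receptor list, 21 of 26 RNA and DNA sensors, 15 of 18 adaptors and kinases and 13 of 20 TRIM ubiquitin ligases. Fewer genes had one among secreted antimicrobial proteins (2 of 15, S100A12 and PTX3), cytokines (1 of 7, IL34), complement genes (8 of 20) and immune cell receptors (6 of 15). These differences were not tested, and the lists are rough. The growth factor CSF1 and the adaptor SH2D1A were counted with the immune cell receptors, and the receptor chain IL1RAP with the cytokines. The complement gene C4 and the RNA polymerase III subunit CRCP, which both had a peak, were counted with the other members, as were CATHL4, CATHL6 and CATHL7. LTF (lactoferrin), LCN2 (lipocalin 2), SLPI, BPIFA1 and the cathelicidin CATHL3 were among the antimicrobial genes without a peak, and NOD2, NLRP3 and NLRC4 among the NOD-like receptors without one. Expression was not analysed here, so a missing peak and a scarce transcript cannot be told apart.

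**Figure D1:**
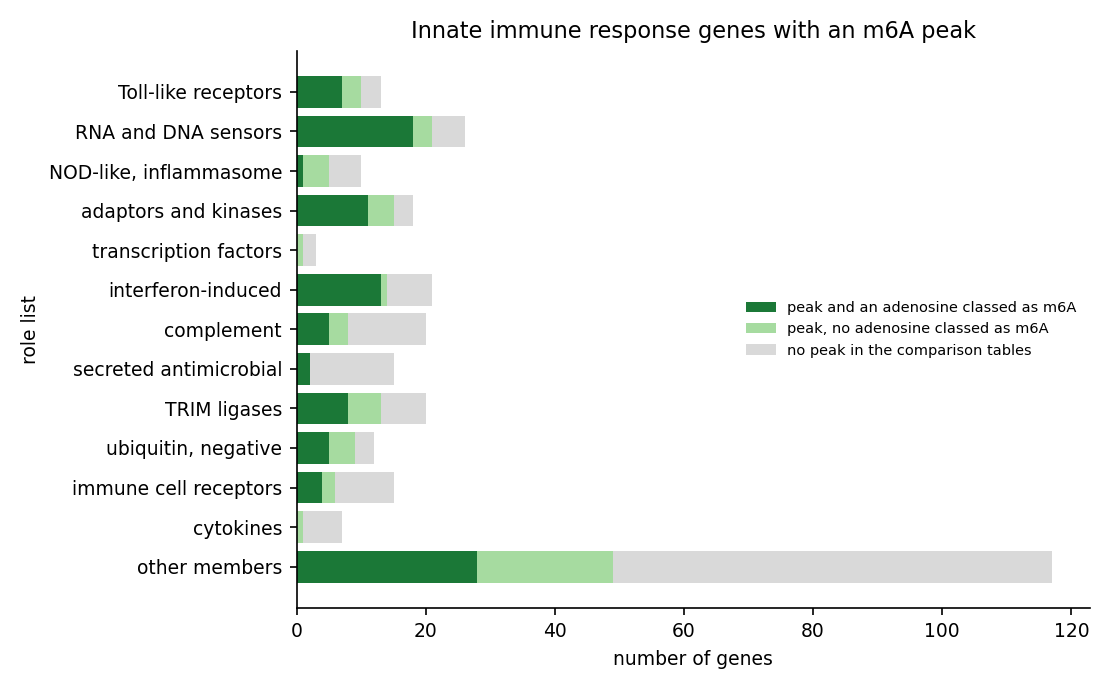
Number of innate immune response genes (horizontal axis) in each role list (vertical axis), split into genes with a peak and an adenosine classed as m6A, genes with a peak only, and genes without a peak in the comparison tables. The grey part is longest among the other members, secreted antimicrobial proteins and complement genes, and it is short for Toll-like receptors (3 of 13 genes) and sensors (5 of 26 genes).

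Corpus was compared with caput first. In the authors' deposited table, 6 of 221 peaks of innate immune response genes were called (2.71%), 4 higher and 2 lower in the corpus, against 2.98% of all 14061 peaks (1.12% higher, 1.86% lower). The share was near that background. Higher in the corpus were the complement C1q-binding protein C1QBP, 2 peaks of the ubiquitin ligase TRIM13, and MX2, an interferon-induced GTPase. Lower were Cd24, a surface glycoprotein that damps danger signals, and Dusp10, a phosphatase of stress-activated kinases. The median log2 fold was -0.018, beside -0.020 for all peaks. At an unadjusted p under 0.05 there were 16 positive and 16 negative member peaks, together 14.5% of member peaks beside 16.4% of all peaks (7.21% positive, 9.24% negative).

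Between cauda and caput, the ends of the duct, 8 of 221 member peaks were called per the authors' deposited table (3.62%), beside 2.27% of all 13826 peaks (1.41% higher, 0.861% lower). Of these, 6 were higher in the cauda: SERINC5, CRCP, ZC3HAV1, TRIM59, ECSIT and MATR3. LGR4 and SSC5D were lower. The member median was 0.077 and the median of all peaks 0.043. At an unadjusted p under 0.05 there were 30 positive and 15 negative member peaks (20.4% together, beside 17.2% of all peaks, 10.5% positive and 6.68% negative).

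Cauda was last compared with corpus. Here 5 of 223 member peaks were called per the authors' deposited table (2.24%), close to the 1.96% of all 13917 peaks (1.24% higher, 0.719% lower). F2RL1 and CD55 were higher in the cauda, and ALPK1, LGR4 and C1QBP were lower. The member median was 0.076 and that of all peaks 0.046, and 32 positive and 17 negative member peaks had an unadjusted p under 0.05 (22% together, beside 16.4% of all peaks, 9.71% positive and 6.68% negative).

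**Figure D2:**
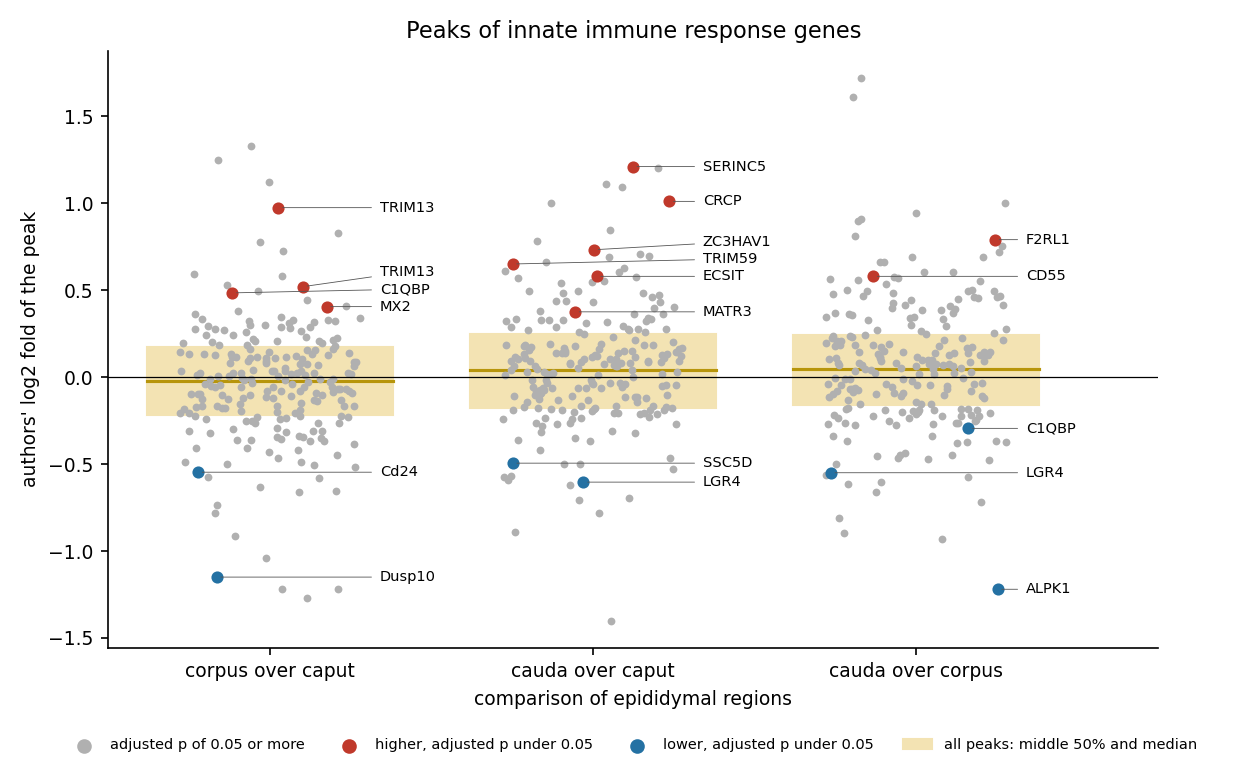
Log2 fold (vertical axis) of every peak of innate immune response genes in the authors' 3 comparisons (horizontal axis, points spread sideways at random), with called peaks coloured and named, and the middle 50% and median of all peaks behind them. Most member peaks lie in or near the band of all peaks, and the called folds range from -1.22 (ALPK1) to 1.21 (SERINC5).

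The 3 comparisons share their libraries, so the 19 calls are not independent. They fell on 18 peaks of 16 genes, and 4 of them were at least 2-fold (Dusp10, SERINC5, CRCP and ALPK1). In 11 of the 19, candidate adenosines were listed in the region where the peak was higher and in none of the other region. In 7 they were listed in both regions, and the Cd24 peak held none in either. The share over all called peaks was not counted. Some tested peaks had no candidate in either region compared, such as the Dusp10 peak for cauda/corpus, whose candidates were in the caput alone. An empty list therefore does not show that a region lacked the peak, and the listing is not an independent measure of the difference.

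Toll-like receptors come first in the order of events. TLR2 with its partners TLR1 and TLR6 reads bacterial lipoproteins, TLR4 lipopolysaccharide and TLR5 flagellin, and TLR3 and TLR7 read double-stranded and single-stranded RNA in endosomes. CD14 hands lipopolysaccharide to TLR4, and CNPY3 helps the receptors fold. None of the list's peaks was called in any comparison. Between corpus and caput, 12 of the 14 peaks of TLR genes had negative log2 folds (range -1.22 to 0.30, median -0.38) per the authors' deposited table, and 3 of them an unadjusted p under 0.05. Of all peaks 47.5% were positive there, and 9.24% were negative at that level. For cauda/caput, 14 of 15 TLR peaks had positive folds in that table (range -0.12 to 1.0, median 0.12), with 7 at an unadjusted p under 0.05, where 54.9% of all peaks were positive and 10.5% positive at that level. For cauda/corpus 15 of 18 were positive (range -0.45 to 0.90, median 0.37), with 4 at that level, where 55.9% of all peaks were positive and 9.71% positive at that level. These medians differ from those of all peaks (-0.020, 0.043 and 0.046), but the pattern was noticed after the values were seen, and peaks of 1 gene are not independent of each other.

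TLR7 illustrates it. Its only peak for corpus/caput (chromosome Y as the authors' table names it, 18302959 to 18303404) had a log2 fold of -0.58 (adjusted p = 0.282) per the authors' deposited table. The same span had 0.50 for cauda/corpus (adjusted p = 0.0977) per the authors' deposited table. A longer peak at 18301869 to 18302761 had 0.39 for cauda/corpus (adjusted p = 0.0912), and 1 at 18300681 to 18300830 had 1.0 for cauda/caput (adjusted p = 0.247) per the authors' deposited table. TLR7 had 46 candidate adenosines listed in the cauda, 21 in the caput and 8 in the corpus. The other receptors had different orders: TLR2 had 15 in the caput, 54 in the corpus and 44 in the cauda, TLR4 had 41, 49 and 52, and TLR6 had 3, 4 and 0. TLR3 had its lowest fold, -1.22, for corpus/caput at chromosome 28, 39879012 to 39879161 (adjusted p = 0.218) per the authors' deposited table, and another of its peaks had 0.30. TLR2 had 4 peaks for corpus/caput, all negative and between -0.43 and -0.12, and 3 for cauda/caput between 0.10 and 0.85. TLR1 had a peak at 0.81 for cauda/corpus per the authors' deposited table (adjusted p = 0.248), and lies beside TLR6 and TLR10, whose single peaks in that comparison had -0.45 and 0.69. TLR4 had folds from -0.21 to 0.12, over 3, 2 and 3 peaks for corpus/caput, cauda/caput and cauda/corpus. For cauda/corpus its folds lay between -0.13 and 0.12, yet its lowest unadjusted p there, 0.00102 per the authors' deposited table, was the lowest of the list. CD14 differed within the gene, as 1 peak had 0.61 and another -0.25 for cauda/corpus (adjusted p = 0.184 and 0.362) per the authors' deposited table.

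The lists of single adenosines show where in such a transcript the mark was predicted. Each position carries the authors' combined prediction score, which classes it as an m6A site from 0.557 upwards, and the score of a position was the same in every region that listed it. TLR7 had 12 of 46 candidates classed as m6A sites, 9 of them with high confidence, the largest such number in its list. The best was at chromosome Y, position 18301897 (score 0.668), and was listed in all 3 regions. TLR4, with 14 of 54 classed and a best score of 0.702 (chromosome 7, position 45948197), came next. TRIM59, a called gene described below, had 8 of 21 classed and a best score of 0.773.

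**Figure D3:**
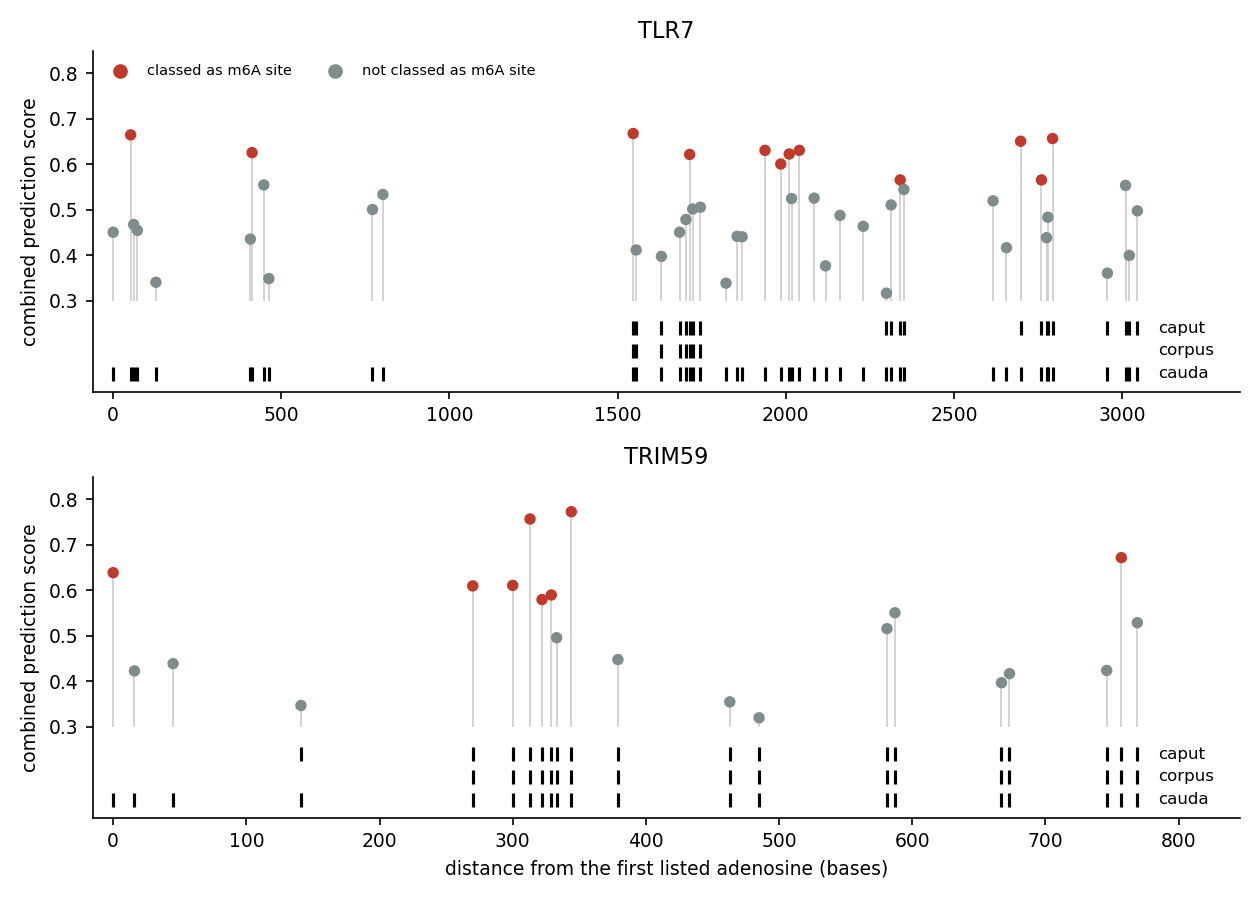
Combined prediction score (vertical axis) of every candidate adenosine of TLR7 and TRIM59 against its distance along the chromosome from the first (horizontal axis, bases), with ticks below for the regions that list it. All 46 TLR7 candidates are listed in the cauda and 8 in the corpus, while TRIM59 candidates are listed nearly alike in the 3 regions (18, 17 and 21 in caput, corpus and cauda).

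The list of RNA and DNA sensors, which leaves out the RNA polymerase III subunit CRCP described below, carried many peaks and no call. DDX58 (RIG-I) and IFIH1 (MDA5) are the helicases that sense viral RNA, DHX58 (LGP2) tunes them, CGAS and IFI16 sense DNA, and RNA polymerase III copies foreign DNA into RNA that RIG-I can read. Of the list's 32, 37 and 32 peaks, 2, 4 and 6 were positive and 3, 1 and 1 negative at an unadjusted p under 0.05 (corpus/caput, cauda/caput and cauda/corpus) per the authors' deposited table, with medians of 0.015, 0.065 and 0.003. Of all peaks, 7.21%, 10.5% and 9.71% were positive and 9.24%, 6.68% and 6.68% negative at that level. IFIH1 held peaks of both directions for cauda/caput at -0.57 and 0.27 (adjusted p = 0.179 and 0.204) per the authors' deposited table. IFI16 had 2 peaks at 0.56 and 0.39 for cauda/corpus per the authors' deposited table, and DHX58 had 0.30 and 0.23 for cauda/caput and cauda/corpus. POLR3A, the catalytic subunit of the polymerase, had -0.78 for corpus/caput (adjusted p = 0.325), and POLR3E had 0.71 and 0.72 for cauda/caput and cauda/corpus (adjusted p = 0.163 and 0.154) per the authors' deposited table.

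CRCP, which encodes another subunit of RNA polymerase III and was first described as a component of a neuropeptide receptor, was called. Its peak at chromosome 26, 16242357 to 16244388, spans an intron and had a log2 fold of 1.01 for cauda/caput (adjusted p = 0.0437) per the authors' deposited table. The other CRCP peaks in that comparison had 0.48 and -0.17, and a longer peak that takes in the called one had -0.14 for cauda/corpus. Among the candidate sites of the sensors, DHX36, a helicase that unwinds G-quadruplexes, had 8 of 35 classed as m6A sites and a best score of 0.805 (chromosome 1, position 123451501). DHX58 had 4 of 13 classed and a best score of 0.713.

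NOD-like receptors and inflammasome genes had 3 to 5 peaks per comparison and none at an unadjusted p under 0.05 per the authors' deposited table. NOD1, a sensor of bacterial peptidoglycan, had the widest spread within a member gene, with 1.72 and -0.93 in 2 peaks for cauda/corpus (adjusted p = 0.795 and 0.424) per the authors' deposited table. RIPK2, the kinase behind NOD1 and NOD2, had -0.26, -0.052 and 0.20 for corpus/caput, cauda/caput and cauda/corpus.

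The adaptors and kinases carry signals from the receptors. MAVS serves the RNA helicases, TICAM1 and TICAM2 serve TLR3 and TLR4, the IRAK kinases serve most Toll-like receptors, and TBK1 activates interferon transcription. In this list 1 peak was called. ECSIT, an adaptor of TLR signalling that also takes part in assembling mitochondrial complex I, had 0.58 for cauda/caput (chromosome 8, 16373653 to 16373899, adjusted p = 0.0234) per the authors' deposited table. The same span had 0.37 for cauda/corpus (adjusted p = 0.173), and an overlapping peak had 0.21 for corpus/caput (adjusted p = 0.834) per the authors' deposited table. Its candidates were listed in the corpus (2) and cauda (5) but not in the caput. IRAK3, a kinase homologue that restrains TLR signalling, had -0.50 for cauda/caput and -0.57 for cauda/corpus per the authors' deposited table (adjusted p = 0.221 and 0.247), with 9 candidates in each region. JAK2, the kinase of many cytokine receptors, had -0.74 in 1 of 4 peaks for corpus/caput (adjusted p = 0.343) per the authors' deposited table. Traf3, a ubiquitin ligase between receptor and TBK1, had 0.55 for cauda/caput (adjusted p = 0.270) per the authors' deposited table. MAP3K5, a stress-activated kinase, had 8 of 27 candidates classed as m6A sites. Of the 3 transcription factors on the list only IRF5 had a peak, with 0.34 for corpus/caput and 0.13 for cauda/caput.

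Interferon-induced effectors had a call in each of the comparisons with the caput. ZC3HAV1 (ZAP) binds CpG-rich viral RNA and directs its decay, and its peak at chromosome 4, 18860883 to 18863377, had 0.73 for cauda/caput (adjusted p = 0.0288) per the authors' deposited table. All 9 candidates of that peak were listed in the cauda only. A slightly shorter stretch had 0.37 for cauda/corpus (adjusted p = 0.225), while another ZC3HAV1 peak had -0.20 and -0.086 in the same comparisons per the authors' deposited table. The other 2 ZC3HAV1 peaks for cauda/corpus had -0.44 and 0.46 (adjusted p = 0.412 and 0.894) per the authors' deposited table. The MX2 peak at chromosome 1, 154403041 to 154415857, had 0.41 for corpus/caput (adjusted p = 0.0363), with 4 candidates in the corpus and none elsewhere per the authors' deposited table. A neighbouring MX2 peak had 0.33 per the authors' deposited table (adjusted p = 0.210) and the 3 others had between -0.18 and 0.022. The authors' gene table pairs the symbol MX2 with the name of MX1, and RefSeq's gene table of another yak assembly (Bosgru_T2T1.0) lists MX1 and MX2 as separate neighbours, so these peaks cannot be divided between both genes.

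For corpus/caput, 7 of 23 effector peaks were positive and 1 negative at an unadjusted p under 0.05 per the authors' deposited table, where 7.21% and 9.24% of all peaks were, and the list's median was 0.018. The 7 were 3 peaks of PARP14, 2 of MX2, 1 of DTX3L and 1 of HERC5, and peaks of 1 gene are not independent. For cauda/caput 4 of 20 were positive and 1 negative (10.5% and 6.68% of all peaks). For cauda/corpus 4 of 25 were positive and 0 negative (9.71% and 6.68% of all peaks). HERC5, the ligase that attaches the ubiquitin-like ISG15, had 1.12 for corpus/caput (adjusted p = 0.282) on a peak with 1 candidate per the authors' deposited table. PARP14, DTX3L and PARP9 lie side by side on chromosome 1 and act in interferon signalling and ADP-ribosylation. They were grouped after their values were seen. Their 7 peaks for corpus/caput had log2 folds from -0.32 to 0.78 (median 0.36) per the authors' deposited table, and 4 were positive at an unadjusted p under 0.05. The lowest p of these was on the PARP14 peak at 72573131 to 72573930 (0.44, adjusted p = 0.0661), and DTX3L had 0.58 (adjusted p = 0.250) per the authors' deposited table. Their 8 peaks for cauda/corpus stayed between -0.27 and 0.14.

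Other effectors had no called peak. IFIT5, which binds viral RNA ends, had -0.49 for corpus/caput per the authors' deposited table (adjusted p = 0.10). APOBEC3H, a cytidine deaminase that mutates viral DNA, had 0.61 and 0.58 for cauda/caput and cauda/corpus (adjusted p = 0.251 and 0.318), with 5 candidates in the cauda only per the authors' deposited table. Pml, the organiser of nuclear bodies, had peaks of 0.69 and -0.42 for cauda/caput (adjusted p = 0.115 and 0.354) per the authors' deposited table. ADAR, which edits adenosine to inosine in double-stranded RNA, had 20 of 72 candidates classed as m6A sites, and SAMHD1, which depletes nucleotides, had 12 of 37. These 2 counts are uncertain. In peaks without an intron, candidates reached at most 7.33 per 100 bases, whereas peaks of ADAR, SAMHD1 and C1QBP held 18.4, 18.6 and up to 13.7.

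Complement genes mark microbes for uptake and lysis, and CD55, CD59 and CD46 protect host cells, sperm among them, from it. C1QBP encodes a mostly mitochondrial protein that also binds the globular heads of C1q. Its peak at chromosome 19, 42064176 to 42068267, had 0.48 for corpus/caput (adjusted p = 0.000479) per the authors' deposited table, the lowest adjusted p among the member peaks. A shorter peak inside it (42064336 to 42065955) had -0.29 for cauda/corpus (adjusted p = 0.0234) and 0.064 for cauda/caput (adjusted p = 0.961) per the authors' deposited table. C1QBP was thus called higher in the corpus than in either end of the duct, on overlapping peaks that share the corpus libraries. CD55, the decay-accelerating factor, had 0.58 for cauda/corpus (chromosome 14, 88060432 to 88074955, adjusted p = 0.00724) and 0.43 for cauda/caput (adjusted p = 0.465) per the authors' deposited table. For corpus/caput, a shorter CD55 peak had -0.17 (adjusted p = 0.115) and another -0.66 (adjusted p = 0.266) per the authors' deposited table. None of the 16 CD55 candidates was classed as an m6A site (best score 0.518). CD59, which blocks the membrane attack complex, had 0.081 and 0.18 for cauda/caput and cauda/corpus. The C1q chains C1QB and C1qc had folds between -0.22 and 0.027. C2, a protease of the classical pathway, had a single peak (0.94 for cauda/corpus, adjusted p = 0.896), listed in the corpus alone with 3 of 9 candidates classed per the authors' deposited table.

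TRIM proteins are ubiquitin ligases, many of them restriction or signalling factors. TRIM13, which sits in the endoplasmic reticulum membrane and acts on RIG-I and MDA5 signalling, was called on 2 peaks for corpus/caput per the authors' deposited table, with 0.52 (chromosome 15, 63986239 to 63986583, adjusted p = 0.0389) and 0.97 (63986779 to 63986926, adjusted p = 0.0363). The first span had -0.47 for cauda/corpus (adjusted p = 0.0617), and the second 0.16 for cauda/caput (adjusted p = 0.484) per the authors' deposited table. Candidates of both spans were listed in the corpus alone, and none was classed as an m6A site. TRIM59, a membrane-anchored member reported to damp TLR-driven NF-kappa B signalling, had 0.65 for cauda/caput (chromosome 1, 116493191 to 116494060, adjusted p = 0.0302) per the authors' deposited table. It had 0.46 for cauda/corpus (adjusted p = 0.215) and 0.16 for corpus/caput (adjusted p = 0.948) per the authors' deposited table.

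Over the whole TRIM list, TRIM13 and TRIM59 included, the medians were -0.018, 0.064 and 0.13 for corpus/caput, cauda/caput and cauda/corpus. Some uncalled folds were as wide as the called ones, among them 1.11 for cauda/caput on 1 of the genes named TRIM26 (adjusted p = 0.810), and Trim62 had -0.65 for corpus/caput and 0.66 for cauda/corpus on 1 peak (adjusted p = 0.932 and 0.692) per the authors' deposited table. TRIM4 had 0.60 and 0.43 for cauda/caput and cauda/corpus per the authors' deposited table (adjusted p = 0.162 and 0.328), with no candidate of that peak in the corpus. TRIM38, which restrains TLR3 and TLR4 signalling, had 8 of 35 candidates classed as m6A sites and folds between -0.30 and 0.24. Copies limit some of these values: 2 genes named TRIM26 both had peaks and 4 genes carry the symbol TRIM5, so reads may be shared between copies.

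Among regulators that trim ubiquitin chains or damp the response no peak was called. USP14, a deubiquitinase of the proteasome, had wide folds of both signs. For cauda/corpus its peaks had 1.61, -0.25 and -0.90 (adjusted p = 0.111, 0.514 and 0.0617) per the authors' deposited table. For cauda/caput the 4 peaks had 1.20, 0.066, -0.50 and -0.71, all at an unadjusted p under 0.05. All USP14 peaks span introns, and the positive one (chromosome 21, 31405357 to 31406775) had 3 candidates, in the cauda only. CYLD and Tnfaip3 (A20), brakes on NF-kappa B, had negative folds in all their peaks, from -1.40 to -0.21, with no unadjusted p under 0.05. OTULIN, which cuts linear ubiquitin chains, had 7 of 21 candidates classed as m6A sites and 0.27 for cauda/caput (adjusted p = 0.330) per the authors' deposited table.

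Immune cell receptors and cytokines had few peaks. CSF1, the growth factor of macrophages, and its receptor CSF1R had folds from -0.42 to 0.18 per the authors' deposited table, with no unadjusted p under 0.05. CSF1 had 11 of 46 candidates classed as m6A sites and a best score of 0.733. MARCO, a scavenger receptor of macrophages, had 1.33 for corpus/caput (adjusted p = 0.385), and TREM2, a lipid receptor of macrophages, had 0.35 per the authors' deposited table. Both were listed in the corpus only. PTX3, a secreted pattern-recognition protein, had a single peak with -0.064 for cauda/caput and 1 of 3 candidates classed.

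**Figure D4:**
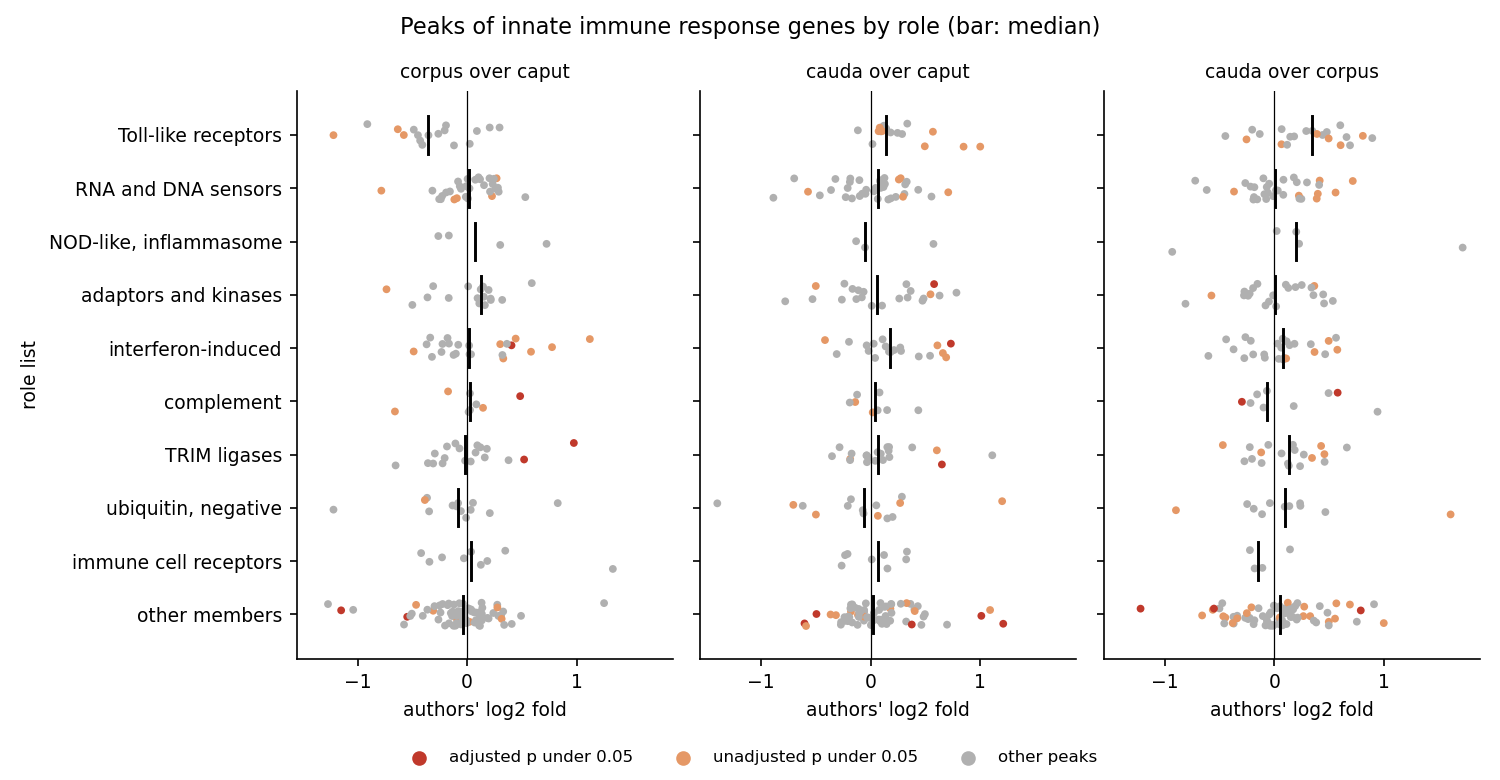
Log2 fold (horizontal axis) of member peaks by role list (vertical axis) in each of the authors' 3 comparisons, with the median as a black bar. The Toll-like receptor medians are -0.35, 0.14 and 0.35 from left to right, with no called peak, and the medians of the other lists drawn lie between -0.14 and 0.20.

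The remaining calls came from genes with other roles, and their values differed in size and direction. SERINC5 encodes a membrane protein that is taken up into virus particles and lowers the infectivity of retroviruses. Its peak at chromosome 11, 13517553 to 13517701, had the largest called rise, 1.21 for cauda/caput (adjusted p = 0.0282), and 1.0 for cauda/corpus (adjusted p = 0.143) per the authors' deposited table. It was listed in the cauda alone, with 4 candidates. MATR3, a nuclear matrix protein with RNA-binding domains, had 0.38 for cauda/caput (chromosome 8, 55003768 to 55003917, adjusted p = 0.0339), with 5 candidates in the cauda only, of which 3 were classed as m6A sites per the authors' deposited table. Its other peak in that comparison had 0.090.

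LGR4 was lower in the cauda than in both other regions. It is a receptor for R-spondins that strengthens Wnt signalling, and mouse work ties it to development of the epididymis. The peak at chromosome 13, 8872678 to 8874147, had -0.60 for cauda/caput (adjusted p = 0.0339) and -0.55 for cauda/corpus (adjusted p = 0.0372) per the authors' deposited table. Both comparisons share the cauda libraries. The same 8 candidates, 3 of them classed as m6A sites, were listed in all 3 regions. SSC5D, a secreted scavenger receptor that binds bacteria, had -0.49 for cauda/caput (chromosome 20, 51432822 to 51434417, adjusted p = 0.0309) per the authors' deposited table. It had -0.26 for corpus/caput (adjusted p = 0.575) and -0.25 for cauda/corpus (adjusted p = 0.324) per the authors' deposited table.

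ALPK1, a kinase that senses a bacterial sugar, ADP-heptose, had the lowest called fold. The peak at chromosome 6, 114552045 to 114552245, had -1.22 for cauda/corpus (adjusted p = 0.0380) and 0.49 for corpus/caput (adjusted p = 0.635) per the authors' deposited table. Its 7 candidates were listed in the corpus alone. F2RL1, a receptor cut by trypsin-like proteases, had 0.79 for cauda/corpus (chromosome 11, 16928351 to 16928549, adjusted p = 0.0468) per the authors' deposited table. The adjacent stretch of F2RL1 had -0.32 for cauda/caput and -0.25 for corpus/caput per the authors' deposited table, with 9 candidates in the caput and cauda. Cd24 had -0.55 for corpus/caput (chromosome 10, 47998898 to 48001818, adjusted p = 0.0178), and an overlapping peak had -0.37 for cauda/caput (adjusted p = 0.157) per the authors' deposited table. Dusp10 had -1.15 for corpus/caput (chromosome 14, 20134942 to 20138802, adjusted p = 0.0178) and -0.27 for cauda/caput (adjusted p = 0.808), with candidates in the caput alone per the authors' deposited table.

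Further uncalled peaks were among the highest or lowest folds at an unadjusted p under 0.05. FGB, the beta chain of fibrinogen, had 1.09 and 0.69 for cauda/caput and cauda/corpus per the authors' deposited table (adjusted p = 0.0692 and 0.259), with 12 candidates in the cauda and 6 in the caput. MCOLN2, an endolysosomal cation channel, had -0.59 for cauda/caput (adjusted p = 0.0708) per the authors' deposited table. CHGA, the precursor of antimicrobial and hormone-like peptides, had -0.66 on 1 of its peaks and -0.45 and -0.21 on the other two for cauda/corpus (adjusted p = 0.325, 0.327 and 0.232) per the authors' deposited table.

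**Figure D5:**
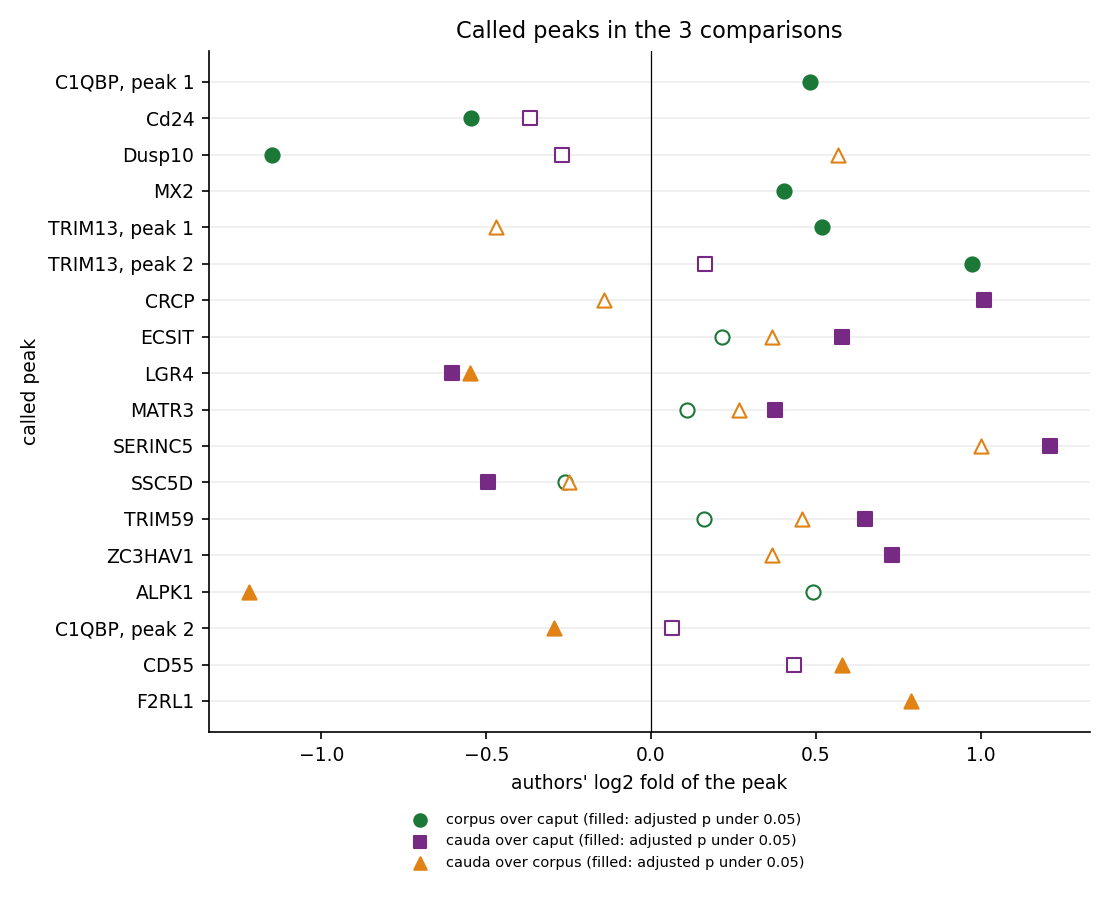
Log2 fold (horizontal axis) of the 18 called peaks (vertical axis) in each of the authors' comparisons that holds a peak whose span overlaps by at least 50% both ways, filled where called. LGR4 has filled symbols at both -0.60 and -0.55, and peaks absent from a comparison have no symbol there.

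Genes with several peaks often held folds of both signs. Of the 55, 59 and 59 member genes with 2 or more peaks, 37, 35 and 34 had both signs per the authors' deposited table for corpus/caput, cauda/caput and cauda/corpus (67.3%, 59.3% and 57.6%). Over all such genes the shares were 60.3%, 59.0% and 58.4%. Both directions at an unadjusted p under 0.05 were seen in Ankrd17 for corpus/caput, in C1QB, IFIH1, Pml and USP14 for cauda/caput, and in CD14 and USP14 for cauda/corpus. These were 1 of 55, 4 of 59 and 2 of 59 member genes. Among all such genes there were 94 of 3504, 102 of 3467 and 75 of 3478, and the difference was not tested.

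In the candidate lists, 2209 adenosines lay in peaks of 147 member genes, and 437 of them were classed as m6A sites (19.8%, 95% Wilson interval 18.2 to 21.5), beside 18.8% of the 121832 positions assigned to any gene. Adenosines of very high confidence were 2.85% of member positions and 2.0% of all. The shares per region were 19.5%, 19.9% and 20.5% in caput, corpus and cauda, but they rest largely on the same positions. A classed position was present in 102 member genes and one of very high confidence in 29. The highest score, 0.896, was on 1 of 2 genes named Ankrd17, a regulator of antiviral signalling (chromosome 6, position 32903491), followed by 0.878 on MATR3 (chromosome 8, position 54987064). Both Ankrd17 genes had many candidates (72 and 85), and reads may be shared between them.

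The share of member peaks listed in several regions depended on the overlap asked for. The caput list held 210 member peaks, the corpus list 226 and the cauda list 211. Merged by an overlap of at least 1 base they formed 255 groups, of which 137 (53.7%) were in all 3 regions, 48 in 2 and 70 (27.5%) in 1 (17 in caput, 26 in corpus and 27 in cauda). At an overlap of at least 50% both ways, 90 of 372 groups were in all 3 regions (24.2%) and 188 in 1 (50.5%). By single adenosines, 51.5% of member positions were listed in all 3 regions and 23.5% in 1, close to the 52.8% and 23.0% of all positions assigned to a gene. By gene, 97 were listed in all 3 regions, 24 in 2 and 26 in 1. Peak groups and genes were counted for members only. Whether these counts differ from those of other genes is therefore unknown. The genes listed in 1 region included C1QB, Mavs and S100A12 in the caput, TRIM13, CD14, MARCO, TREM2, HERC5 and ZBP1 in the corpus, and SERINC5, APOBEC3H, TLR10 and TRIM14 in the cauda.

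Markers of immune cells bear on these genes, since macrophages and lymphocytes line the duct. Of 30 genes that carry a marker symbol 13 had a peak, and no marker of mast cells did. Some symbols are carried by more than 1 gene. The markers CSF1R, S100A8, S100A12 and JCHAIN are innate immune response genes themselves, so the markers are not a separate gauge of cell content. In the authors' deposited table, 1 of 20 marker peaks was called for corpus/caput, 0 of 17 for cauda/caput and 0 of 18 for cauda/corpus, while 2, 2 and 2 had an unadjusted p under 0.05. The called peak was on PTPRC (CD45, the surface phosphatase of all leukocytes), with 0.93 (adjusted p = 0.00550), and its other 3 peaks there had 0.21, 0.14 and -0.75 per the authors' deposited table. The 4 PTPRC peaks for cauda/corpus had between -0.54 and -0.31. CD68, a lysosomal protein of macrophages, had 0.64 and 0.44 for corpus/caput and cauda/caput (adjusted p = 0.204 and 0.0832), and CD163 had between -0.50 and 0.34 per the authors' deposited table. The macrophage marker AIF1 had -0.18 and -0.13 for corpus/caput and cauda/caput, and CSF1R had between -0.344 and 0.125 there. Over all macrophage markers the medians were -0.08, -0.082 and 0.03 for corpus/caput, cauda/caput and cauda/corpus. Of all peaks, 2.98%, 2.27% and 1.96% were called in these comparisons. Among epithelial markers, those of clear cells had 3 called peaks lower in the corpus than in the caput, of 6. The 6 folds ran from -1.35 to 1.88 (median -0.80), with both ends on ATP6V1B1. None of their 3 peaks for cauda/caput or 2 for cauda/corpus was called, nor was any peak of the basal cell markers. Those of principal cells had 2 lower of 7 for corpus/caput, and 1 higher and 2 lower of 7 for cauda/caput, all on ADAM28, whose called folds were -0.49 and -0.019 for corpus/caput and 0.13, -1.90 and -2.26 for cauda/caput per the authors' deposited table. The part of these cells in the results was not tested.

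Of the wider pathway lists, 254 genes are not annotated with the term, and 155 of them had a peak. In the authors' deposited table, 2 of their peaks were called higher and 3 lower of 238 for corpus/caput, 6 and 1 of 222 for cauda/caput, and 4 and 3 of 215 for cauda/corpus, beside 2.98%, 2.27% and 1.96% of all peaks called in either direction. IFIT2 and IFIT3, interferon-induced antiviral proteins, had 0.96 and 0.65 for cauda/caput (adjusted p = 0.00355 and 0.00132) per the authors' deposited table. IKBKG and IKBKB, subunits of the kinase that frees NF-kappa B, had 1.12 for cauda/caput and 0.85 for cauda/corpus (adjusted p = 0.0269 and 0.0186) per the authors' deposited table. GBP2, an interferon-induced GTPase, TRIM34, a ubiquitin ligase, and Tnip1, a partner of A20, were lower for cauda/corpus, with -0.64, -0.94 and -0.51 (adjusted p = 0.0141, 0.00871 and 0.0257) per the authors' deposited table. PPM1A, a phosphatase that acts on antiviral signalling, had -1.46 for corpus/caput and 2.12 for cauda/corpus (adjusted p = 0.0112 and 0.00759) per the authors' deposited table.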

How the data were processed

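MeRIP-seq was done on 18 libraries (3 RIP and 3 input per region). Trimmomatic, HISAT2 and deepTools are named, without versions, per the submitters' processing notes. Which tools called peaks, tested differences and scored adenosines, and on which build, were details not given in the sources used here. The deposited comparison tables hold, per peak, the authors' ratio (fold) with its log2 value, a p-value and an adjusted p-value, and log10 columns of both p-values that serve as a score and were not used, per the file headers. The deposited candidate lists hold the authors' prediction score per adenosine, per the file headers. A position listed in several regions had the same score in each (0 of 97619 differed), so it does not measure a region's methylation. Depth is unknown, and precision rests on the authors' tests.

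Members were matched by gene identifier in the comparison tables and by peak span in the lists. Coordinates count from 1, and spans include introns. Folds are first over second region: peaks with candidates only in the first region had positive medians (0.32, 0.39 and 0.40) and those only in the second negative ones (-0.38, -0.27 and -0.30). Positions repeated in a list were counted once, with the highest score. Shares have 95% Wilson intervals (statsmodels 0.14.6, pandas 2.3.3, Python 3.11.15). Overlap, grouping and interval code was tested on simulated data. The 9 columns of the expression table match no label and were not used.

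The members, the 12 role lists and the rules were chosen with earlier results of these data known. Named were all genes with a called peak, per comparison the 4 highest and 4 lowest folds at an unadjusted p under 0.05, and per role list the 2 genes with most adenosines of high or very high confidence. One gene under this rule is not reported here. Other genes were named after their values were seen. Alternatives were other thresholds, unspliced peaks, the exact term, the left-out symbols, and other overlap and class rules. No sequence is shown, since none was in the files used here.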

Additional observations from a re-analysis of the deposited data

How the results depend on the processing

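Against the counts at an adjusted p under 0.05 (6, 8 and 5 for corpus/caput, cauda/caput and cauda/corpus), an unadjusted p under 0.05 gave 32, 45 and 49 called peaks, an adjusted p under 0.01 gave 1, 0 and 1, and a further demand of at least 2-fold gave 1, 2 and 1. Peaks without an intron alone gave 2, 5 and 2. Of all peaks, 16.4%, 17.2% and 16.4% had an unadjusted p under 0.05. All peaks were not counted under the other rules, so the member counts there cannot be set against a background. With the left-out symbols kept, the counts were 6, 10 and 8. Of the 19 single calls, 17 were lost at an adjusted p under 0.01 and 15 at 2-fold. No member peak had a p listed as 0, so leaving such peaks out could change no count. Leaving out genes without the exact term moved no count by more than 1.5 times. With an overlap of at least 50% of each peak, 90 groups were in all 3 regions and 188 in 1, where 1 base gave 137 and 70. The high and very high classes alone made up 8.42% of member adenosines, where all classes gave 19.8%. Leaving out ADAR, SAMHD1 and C1QBP, an alternative added after the data were seen, gave 19.3%. With 1 peak per gene, the one with the lowest p, the median folds were -0.009, 0.041 and 0.078 in place of -0.018, 0.077 and 0.076. All peaks were not reduced in this way, so the 0.041 for cauda/caput cannot be set against their 0.043.

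No paired analysis was possible because the deposited comparison tables carry no values per library, and no library could be left out in turn. The planned expression tests and their alternatives were not run, since the expression columns match no label. Unknown depth limits every fold, and small called folds such as -0.29 (C1QBP) cannot be set against replicate spread.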

Other observations

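Of the 32 genes left out by symbol, the beta-defensins, secreted antimicrobial peptides of the epididymal epithelium, held called peaks per the authors' deposited table. DEFB118 had -1.57 and -0.80 on 2 peaks for cauda/caput (adjusted p = 0.00661 and 0.00479) and -0.77 for cauda/corpus (adjusted p = 0.0234) per the authors' deposited table. DEFB119 had -0.88 and -0.48 on 2 peaks for cauda/corpus (adjusted p = 0.00129 and 0.000389), and another of its peaks had 0.83 (adjusted p = 0.837) per the authors' deposited table. The spans of DEFB118, DEFB119 and DEFB116 adjoin or overlap on chromosome 12, so reads may be shared. No left-out gene had a called peak for corpus/caput.

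Where 1 span of a member gene was in all 3 tables (26 peaks), the log2 fold for cauda/caput differed from the sum of the other 2 by a median of 0.0103 and at most 0.0824. For such a peak 1 of the 3 folds thus nearly follows from the other 2, and these 2 still share the corpus libraries.

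By the authors' pathway annotation, 1 of 13 members in natural killer cell mediated cytotoxicity had a peak (7.69%), beside 42.6% of the 122 genes of that pathway. In the Influenza A pathway 19 of 22 members had one (86.4%), beside 54.7% of its 159 genes. These 2 pathways were picked after their values were seen, and no test was run.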
